A study of Homo sapiens with 10 samples.

Results

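The genes described here encode the proteasome, its activators, its inhibitor and its assembly factors. They were taken as every row of the read count table whose symbol is PSM followed by a letter from A to G and a number, which gave 48 genes among 22626 rows. In ARPE-19 cells held for 48 h in high glucose, 2 of the 46 that could be tested changed past the threshold, where 15.4% of all rows did, and both fell: PSME1, 1 of the subunits of the 11S activator that caps the catalytic core, and PSME4, a large single-chain cap known as PA200, whose call was close to the threshold and was kept in 1 of 10 fits that left out 1 library. Under 2 of the other settings tried, 8 members passed, which was 17.8% and 17.4% of those tested, where 27.1% and 29.3% of all rows passed. The core, the lid and the base of the particle gave no call in the main test. The inducible catalytic subunits PSMB8 and PSMB9 had few reads in either medium.

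The proteasome is the main machine by which cells break down proteins tagged with ubiquitin. Its barrel-shaped 20S core has outer rings of alpha subunits (PSMA), which gate the entry, and inner rings of beta subunits (PSMB), of which PSMB6, PSMB7 and PSMB5 carry the caspase-like, trypsin-like and chymotrypsin-like active sites. The 19S cap consists of a base with a ring of ATPases (PSMC) that unfold the substrate, and a lid (most PSMD genes) that removes ubiquitin chains. In cells exposed to interferon the active-site subunits are exchanged for PSMB9, PSMB10 and PSMB8, and the 11S activator made of PSME1 and PSME2 binds the core in place of the 19S cap. In the retinal pigment epithelium (RPE), which digests photoreceptor outer segments throughout life, protein turnover is shared between this system and the lysosome.

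The study grew ARPE-19, an established human line derived from RPE, in 1 of 2 media for 48 h and sequenced its RNA. The control medium held 5.5 mM D-glucose with 32 mM mannitol, which balances the osmotic load, and the high glucose (HG) medium held 37.5 mM D-glucose. There were 5 control and 5 HG libraries, all of the same line and culture conditions with fetal bovine serum, and no gene was altered in any of them. The labels do not say whether libraries of a group came from separate cultures, so p-values measure the spread between these libraries only, which may be technical.

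Library totals ran from 32448991 to 45864176 counts. TXNIP, a gene known to respond to glucose, was higher in HG (log2 fold change 3.15, edgeR adjusted p = 5.5e-05), as the labels would have it. Of the RPE markers examined, OTX2, MITF and the keratins KRT8 and KRT18 were present, whereas RPE65, the visual cycle isomerase that defines mature RPE, did not exceed 0.135 CPM (counts per 1e6 mapped counts) in any library. The marker TYR did not exceed 0.8175 CPM, and neither TYR nor RPE65 had enough counts to be tested. Of 7 such markers tested, PMEL, KRT8 and KRT18 fell in HG, at log2 fold changes of -0.72, -0.62 and -0.68, where 7.8% of all rows fell. The other 4, RLBP1, BEST1, MITF and OTX2, had values below zero and did not pass. All 7 passed as lower in HG both without the libraries control_2 and HG_1 and after correction for GC content and transcript length. Under these settings 27.1% and 29.3% of all rows passed, in either direction. The fall of BEST1 rests on control_1 and control_4, at 264 and 551.5 CPM, since the other controls lay between 0.577 and 5.26 CPM and the HG libraries between 0.981 and 7.79 CPM. The part of the marker shift in the results on proteasome genes was not tested. The blood cell marker PTPRC and the endothelial marker PECAM1 did not exceed 0.122 CPM. The libraries control_2 and HG_1 stood apart from the rest: their log2 CPM rose with the GC content of transcripts, by 0.17 and 0.188 per 10 percentage points, while the other libraries had slopes between -0.0916 and -0.00519. Members whose call changed without both of these libraries are named.

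Of the 48 genes, 46 had enough counts to be tested. PSMA8, the alpha subunit of testis, and PSMB11, the beta subunit of the thymic cortex, had no count in any of the 10 libraries, which allows a level of up to 0.0669 to 0.0912 CPM depending on the library (3 counts over the scaled library size, counting error only). Among the 46, 2 (4.35%) had a Benjamini-Hochberg adjusted p under 0.05 in edgeR's quasi-likelihood test, where 15.4% of all 14936 rows tested did. Both were lower in HG, a direction called in 7.8% of all rows, and none was higher, a direction called in 7.62%. At an unadjusted p under 0.05 there were 6 members, against 28.5% of all rows. DESeq2 called 3 of the 46, where it called 19.8% of all rows, and added 1 gene that rose, PSMD14.

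The changes were small as well as few. The median absolute log2 fold change was 0.0674 over the 46 members and 0.15 over all rows tested, and 24 members lay above zero and 22 below. For 28 of the 46, the whole 95% interval of the log2 fold change lay within 0.3 of zero, that is within 1.23-fold in either direction, as it did for 30.5% of all rows. Of the rows tested, 9982 had a mean of at least 10 CPM, as did all tested members except PSMB8 and PSMB9. Rows with few counts carry more counting error, and the members were not set against rows of like level. In bulk RNA, fewer cells of a type and less RNA per cell cannot be told apart.

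**Figure D1:**
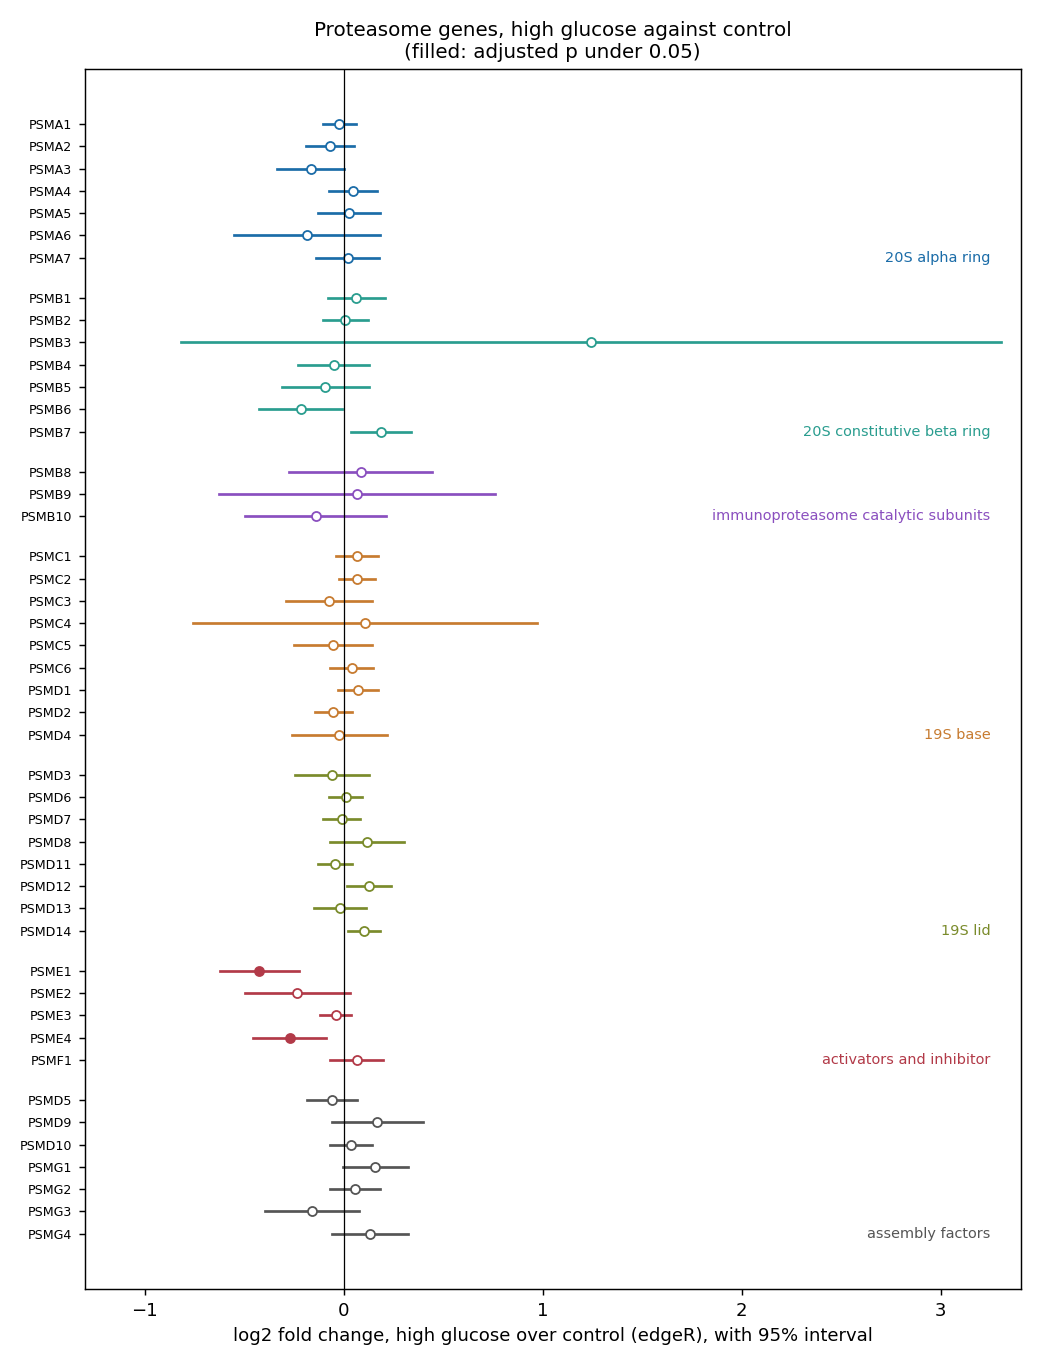
Log2 fold change of each of the 46 tested proteasome genes in high glucose over control (edgeR, points) with its 95% interval (lines), grouped by the part of the particle the gene encodes; filled points have an adjusted p under 0.05. PSME1 (-0.42) and PSME4 (-0.27) are the filled points, and PSMB3 and PSMC4 have the widest intervals.

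The summed level of the constitutive particle differed between the media by less than the spread between libraries. Over 28 genes of the 20S core, base and lid, leaving out PSMB3, PSMC4 and PSMA6 because of their spread between libraries, the sum was 4302 ± 207 CPM in control and 4291 ± 218 CPM in HG (SD, n = 5 each). The highest sums of each group were those of control_2 (4660 CPM) and HG_1 (4671 CPM), and the other 8 libraries lay between 4116 and 4292 CPM. Of the 46 tested genes, 28 had their highest control value in control_2 and 31 had their highest HG value in HG_1.

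**Figure D2:**
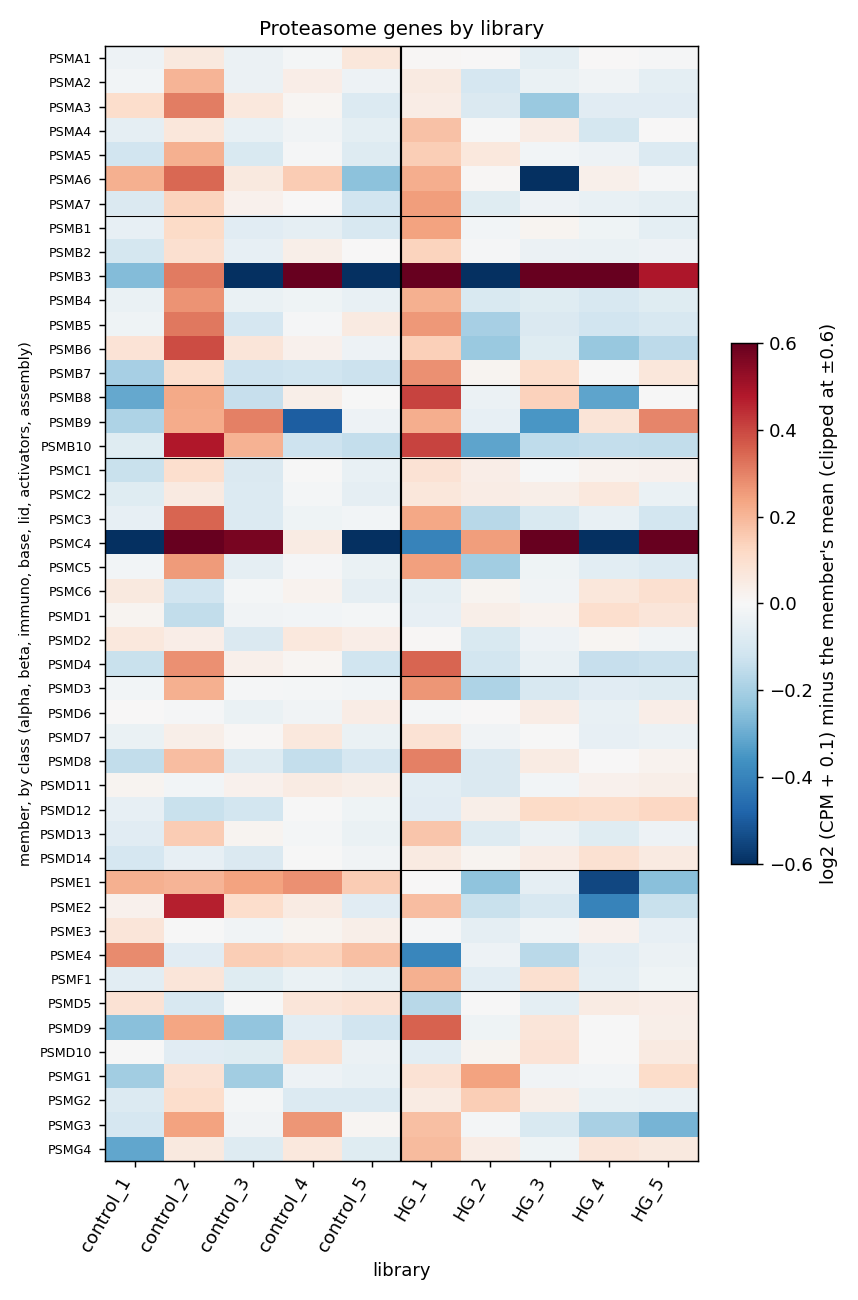
Log2 (CPM + 0.1) of each tested member minus that member's mean over the 10 libraries, with libraries in columns and genes in rows by class; colours are clipped at 0.6 in either direction. The columns control_2 and HG_1 are raised across many rows of both groups, PSME1 is above its mean in every control library, and PSMB3 and PSMC4 scatter widely within both groups.

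In the alpha ring, none of the 7 tested members passed the threshold, and their log2 fold changes ran from -0.18 to 0.05 with a median of -0.02. Their mean levels in control, per length, ran from 28.0 FPKM for PSMA5 to 162 FPKM for PSMA7. The lowest fold change was that of PSMA6, which is described here although it was chosen after its values were seen. It measured 92.2, 101.0, 82.9, 88.6 and 67.2 CPM in control_1 to control_5 and 92.8, 80.1, 46.6, 81.3 and 79.4 CPM in HG_1 to HG_5. The low values were those of control_5 and HG_3, and the groups overlapped.

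PSMA6 lies inside a longer annotated gene on the same strand, AL121594.1, and 80.3% of the 100-base windows of its transcripts also occur in other genes, chiefly that one. AL121594.1 was highest in the same libraries in which PSMA6 was lowest, at 53.5 CPM in control_5 and 82.7 CPM in HG_3, against 20.7 to 37.1 CPM elsewhere. When the counts of both rows were added, the coefficient of variation over the 10 libraries was 5.79%, against 18.8% for PSMA6 alone, and the sum was 117 ± 4.89 CPM in control and 117 ± 8.87 CPM in HG. The log2 fold change of the sum was -0.01 (SE 0.06, adjusted p = 0.925). The level of PSMA6 by itself is therefore uncertain in these counts. PSMA2 and PSMA1 also share windows with other genes (49.2% and 39.1%).

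In the constitutive beta ring, none of the 7 genes passed, with log2 fold changes from -0.22 to 1.24 and a median of 0.01. The largest value belongs to PSMB3, which encodes a non-catalytic beta subunit that every 20S core contains. Its level was 8.85, 13.2, 0.313, 35.9 and 3.46 CPM in control_1 to control_5 and 55.9, 2.91, 29.3, 42.5 and 14.9 CPM in HG_1 to HG_5. Both groups held libraries with very little PSMB3 and libraries with much of it. The highest library held 179 times the lowest, and the interval of the fold change ran from 0.568 to 9.87 (adjusted p = 0.438). Its spread within groups was wider than that of 99.4% of the 9982 rows with a mean of at least 10 CPM.

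PSMC4, an ATPase of the base, scattered in the same manner and was chosen after its values were seen. It measured 11.7, 46.4, 39.3, 27.4 and 15.9 CPM in the control libraries and 20.03, 31.6, 43.8, 16.3 and 40.2 CPM in the HG libraries. The HG range lay inside the control range (log2 fold change 0.11, SE 0.39, adjusted p = 0.898). For comparison, the highest and lowest libraries differed by 1.06-fold to 1.53-fold for the 28 other genes of the core, base and lid. No 100-base window of PSMB3 or PSMC4 transcripts occurred in another gene of the annotation. The high and low libraries were not the same for these 2 genes: control_3 was lowest for PSMB3 and the second highest control for PSMC4. The source of the spread was not tested.

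**Figure D3:**
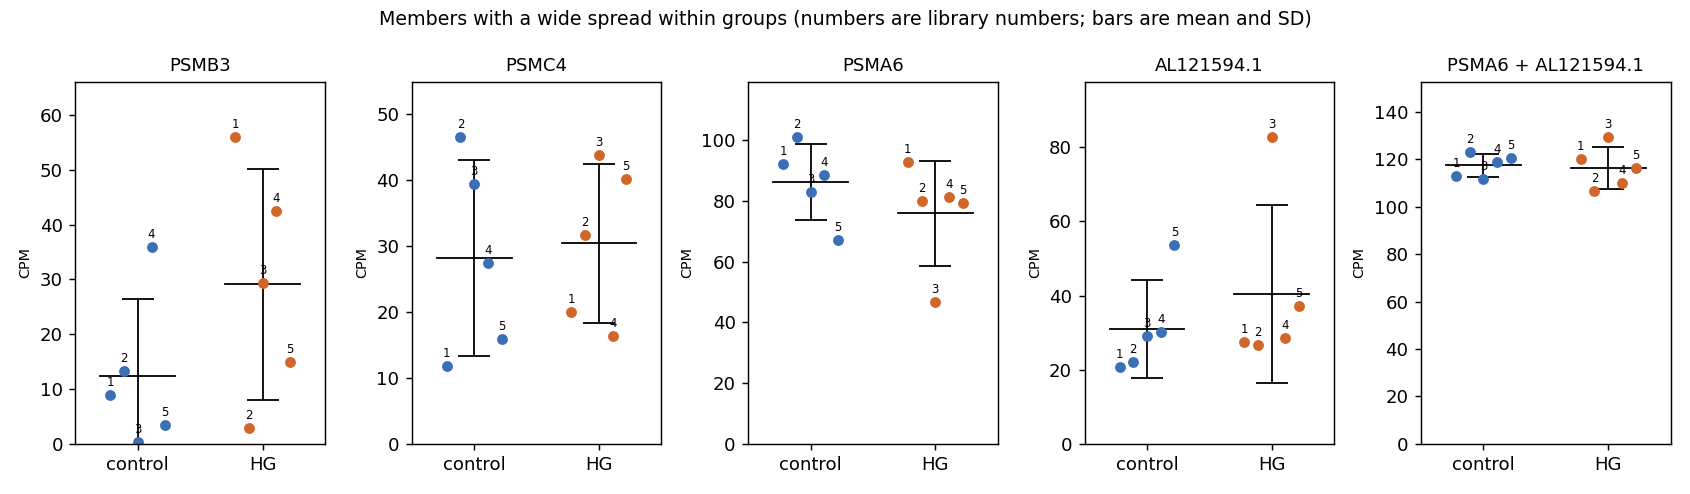
CPM in each library for PSMB3, PSMC4, PSMA6, the overlapping gene AL121594.1 and the sum of PSMA6 and AL121594.1; points carry the library number and black bars give mean and SD of 5 libraries, cut at the axis for PSMB3 in control. PSMB3 and PSMC4 scatter in both groups, and the dip of PSMA6 in control_5 and HG_3 is matched by a peak of AL121594.1, so that the sum is even.

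Among the active-site subunits, PSMB7 (trypsin-like) had the highest log2 fold change of any member other than PSMB3. It measured 120.8, 148.6, 127.1, 127.7 and 126.9 CPM in control and 167.9, 140.4, 149.3, 138.5 and 145.3 CPM in HG. The groups overlapped through control_2 alone. The log2 fold change was 0.19 (SE 0.07) with an adjusted p = 0.096, so the gene did not pass. Without control_2 it passed (0.24, adjusted p = 0.020), as it did without control_2 and HG_1 together (0.19, adjusted p = 0.0033). Without HG_1 alone it was 0.14 (adjusted p = 0.125). PSMB7 passed in 1 of the 10 fits that left out 1 library.

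PSMB6 (caspase-like) was lower in HG, also short of the threshold. Its values were 88.2, 109.4, 87.7, 84.7 and 81.6 CPM in control and 92.0, 71.4, 79.3, 71.3 and 74.7 CPM in HG. The overlap came from HG_1, the highest HG library (log2 fold change -0.22, SE 0.09, adjusted p = 0.158). Without HG_1 the value was -0.28 (adjusted p = 0.040), and without both control_2 and HG_1 it was -0.20 (adjusted p = 0.0096). Without control_2 alone it was -0.14 (adjusted p = 0.259). PSMB6 passed in 1 of the 10 fits that left out 1 library.

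PSMB5 (chymotrypsin-like) measured 123.3, 156.2, 117.0, 124.8 and 130.4 CPM in control and 150.5, 109.5, 118.1, 116.0 and 117.6 CPM in HG. The groups overlapped widely (log2 fold change -0.09, SE 0.10, adjusted p = 0.612). The value was -0.02 without control_2, -0.17 without HG_1 and -0.10 without both (adjusted p = 0.091). Correcting each library for GC content and transcript length brought PSMB5, PSMB6 and PSMB7 past the threshold, at -0.15, -0.29 and 0.11 with adjusted p = 0.026, 0.00014 and 0.0099.

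A ratio of 2 genes within a library removes what that library does to both alike, and 7 such ratios were compared, chosen after the values were seen. Neither the permutation test nor the adjustment accounts for that choice, so the p-values of the ratios overstate the evidence. In FPKM, which are per length, PSMB7 over PSMB6 was 1.15, 1.14, 1.22, 1.26 and 1.30 in control_1 to control_5 and 1.53, 1.65, 1.58, 1.63 and 1.63 in HG_1 to HG_5. The groups did not overlap, and control_2 and HG_1 fell in with their own groups. The ratio was 1.32-fold higher in HG, with a 2-sided exact permutation p = 0.0079, the smallest that 5 against 5 libraries allow, and 0.056 after Benjamini-Hochberg adjustment over the 7 ratios. The same ratio taken from the counts gave an adjusted p = 0.028 in the exact permutation test, because PSMB7 over PSMB5 also reached the smallest p there. In FPKM, PSMB7 over PSMB5 overlapped between groups (0.970 to 1.16 in control, 1.14 to 1.31 in HG, exact permutation p = 0.016, adjusted 0.056), and PSMB5 over PSMB6 did too (1.05 to 1.32 in control, 1.22 to 1.35 in HG, exact permutation p = 0.040, adjusted 0.069).

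The inducible counterparts of these subunits were far below them. Per length, PSMB8 stood at 2.22 ± 0.36 FPKM in control and 2.34 ± 0.42 FPKM in HG (SD, n = 5 each), PSMB9 at 0.236 ± 0.092 and 0.273 ± 0.060 FPKM, and PSMB10 at 19.9 ± 3.67 and 18.1 ± 3.37 FPKM. PSMB5, PSMB6 and PSMB7 stood at 118, 101 and 122 FPKM in control. PSMB9, which overlaps PSMB8 and TAP1 on the other strand, rested on 5 to 14 counts per library.

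None of the 3 inducible subunits passed the test. PSMB8 measured 2.52, 3.68, 2.84, 3.21 and 3.12 CPM in control and 4.18, 3.05, 3.46, 2.49 and 3.13 CPM in HG. PSMB10 measured 18.8, 27.7, 22.9, 18.1 and 17.9 CPM in control and 26.2, 15.9, 17.8, 17.9 and 17.8 CPM in HG. For both genes control_2 and HG_1 were the highest of their groups, and the groups overlapped. For PSMB10 the log2 fold change was -0.14, and it was -0.02 without control_2, -0.28 without HG_1 and -0.16 without both (adjusted p = 0.221). The intervals of the fold changes ran from 0.828 to 1.36 for PSMB8, from 0.649 to 1.69 for PSMB9 and from 0.710 to 1.16 for PSMB10 (adjusted p = 0.790, 0.921 and 0.632), so that changes inside these limits could not be seen at this depth and spread.

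Set against its constitutive counterpart in the same library, PSMB8 amounted to 1.54% to 2.15% of PSMB5 in control and 1.63% to 2.36% in HG. PSMB9 amounted to 0.118% to 0.291% of PSMB6 in control and 0.216% to 0.405% in HG. PSMB10 made up a larger part, 14.3% to 18.8% of PSMB7 in control and 11.4% to 15.7% in HG. This last ratio in HG stood at 0.794 times its level in control (2-sided exact permutation p = 0.032, adjusted 0.069), with overlap between the groups. Of the 100-base windows of PSMB10 transcripts, 31.7% also occur in other genes, chiefly AC040162.1, which overlaps it on the same strand and whose row held 1.37 to 3.79 CPM, so that the level of PSMB10 and this ratio are uncertain to that extent. With both rows added, the log2 fold change was -0.11 (SE 0.16, adjusted p = 0.723). For PSMB8 over PSMB5 and PSMB9 over PSMB6 the exact permutation p was 0.294 and 0.151, adjusted 0.294 and 0.176.

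**Figure D4:**
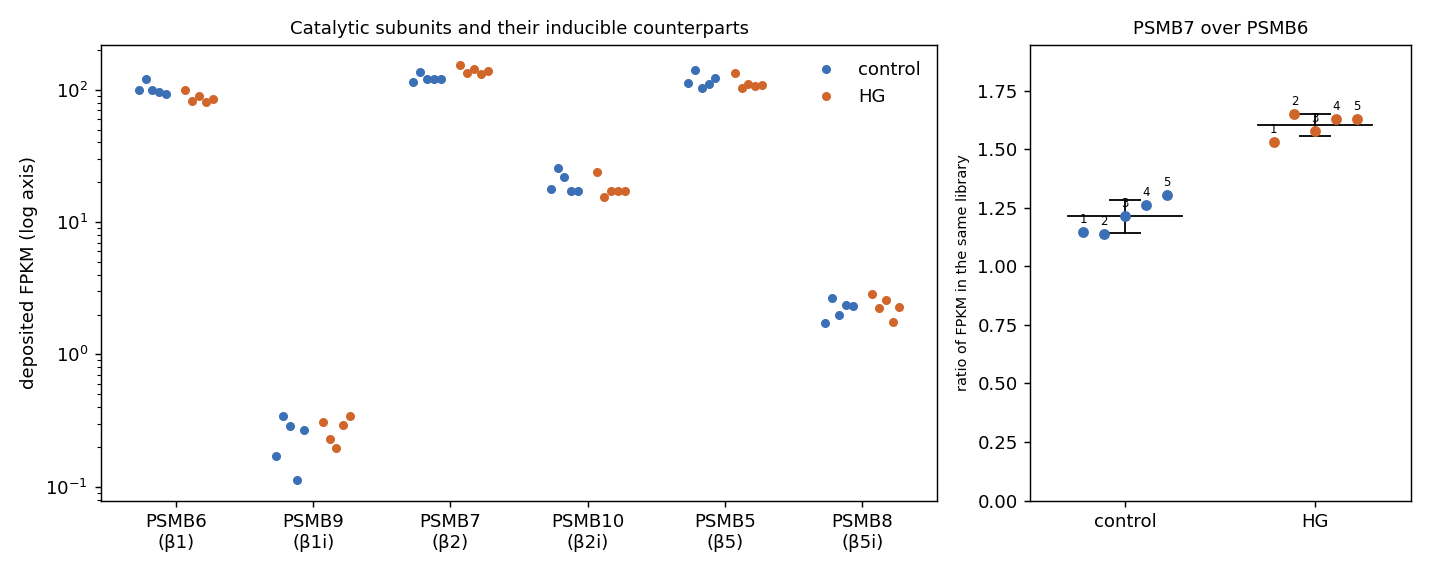
Left, deposited FPKM (log axis) of the active-site subunits of the 20S core and of their inducible counterparts in each library, beside each other by site; right, the ratio of PSMB7 to PSMB6 in each library, with mean and SD of 5 libraries and the library numbers. PSMB8 and PSMB9 lie far below PSMB5 and PSMB6 in both groups, and the ratio lies between 1.14 and 1.30 in control and between 1.53 and 1.65 in HG.

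In the 19S base, none of 9 genes passed, with log2 fold changes from -0.07 to 0.11 and a median of 0.04, and the interval of the log2 fold change lay within 0.3 of zero for 8 of them, PSMC4 being the exception. PSMD2, a scaffold of the base, had the highest level of all members per length (240 ± 10.6 FPKM in control, 232 ± 6.66 FPKM in HG). PSMD4, a receptor for ubiquitin chains, had a log2 fold change of -0.02.

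In the 19S lid, none of 8 genes passed, with log2 fold changes from -0.06 to 0.13 and a median of 0.00041, and the interval lay within 0.3 of zero for 7 of the 8, PSMD8 being the exception. PSMD14, the enzyme that cuts the ubiquitin chain from the substrate, was named after its values were seen. It measured 101.7, 105.6, 102.9, 108.9 and 107.7 CPM in control and 113.3, 110.6, 112.5, 116.3 and 113.3 CPM in HG. Every HG library was above every control library, one of 2 members without overlap (4.35%, where 13.6% of all rows did not overlap). The difference was 1.07-fold (log2 fold change 0.10, SE 0.04, adjusted p = 0.085), and DESeq2 called it (0.10, adjusted p = 0.024). It passed without control_2 and HG_1 together (0.10, adjusted p = 0.042), and after GC and length correction it was at 0.050 (adjusted p = 0.256). PSMD12, a scaffold of the lid, also seen first and then named, was at 0.13 (SE 0.05, adjusted p = 0.111), and it passed without HG_1 alone (0.16, adjusted p = 0.021).

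The activators held both of the genes that passed. Of the 5 genes of this class, 2 fell, where 7.8% of all rows did, PSME2, PSME3 and PSMF1 did not pass, and the median log2 fold change was -0.23, against 0.0013 over all rows tested. PSME1, the alpha chain of the 11S activator, measured 137.2, 136.3, 139.7, 142.9 and 131.3 CPM in control_1 to control_5 and 118.5, 99.8, 114.0, 80.8 and 99.4 CPM in HG_1 to HG_5. Every HG library was below every control library, and the HG libraries were more spread out. The mean was 137 ± 4.28 CPM in control and 102 ± 14.8 CPM in HG (SD, n = 5 each), a fold change of 0.746 with an interval from 0.650 to 0.855 (log2 fold change -0.42, SE 0.09, adjusted p = 0.0092).

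PSME1 passed in each of the 10 fits that left out 1 library, with log2 fold changes from -0.48 to -0.35. It also passed without control_2 and HG_1 together (-0.48, adjusted p = 0.0043) and after GC and length correction (-0.50, adjusted p = 0.00059). Its last exon meets that of EMC9, a gene on the other strand, for which the test gave -0.02 on the log2 scale with an adjusted p = 0.959.

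PSME2, the beta chain that combines with PSME1, measured 55.7, 75.5, 58.9, 56.5 and 52.1 CPM in control and 62.2, 49.8, 51.1, 41.3 and 49.8 CPM in HG. The highest of each group were control_2 and HG_1, and HG_1 lay above 4 of the 5 controls. The log2 fold change was -0.23 (SE 0.12) with an adjusted p = 0.236. It was -0.13 without control_2 (adjusted p = 0.419), -0.21 without control_2 and HG_1 together (adjusted p = 0.050, not past the threshold) and -0.26 after GC and length correction (adjusted p = 0.0040). HG_4 was the lowest library for both chains. PSME1 over PSME2 in FPKM was 1.65 to 2.33 in control and 1.70 to 1.98 in HG, with an exact permutation p of 0.063, adjusted 0.089. RNF31, which overlaps PSME2 on the other strand, fell (2.11 to 14.9 CPM in control, 0.943 to 2.30 CPM in HG, adjusted p = 0.0089); whether the counting used strand is not given in the sources used here, and the part of RNF31 reads in PSME2 was not tested.

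PSME4, the PA200 cap found mainly in the nucleus, measured 89.0, 69.8, 81.1, 80.2 and 82.8 CPM in control and 55.6, 71.5, 65.4, 70.0 and 71.4 CPM in HG. The groups overlapped through control_2, the lowest control, and HG_1 was the lowest of all. The fold change was 0.829 with an interval from 0.730 to 0.940 (log2 fold change -0.27, SE 0.08, adjusted p = 0.049), close to the threshold. It held in 1 of the 10 fits that left out 1 library, that without control_2, with log2 fold changes from -0.32 to -0.21 and adjusted p from 0.022 to 0.117. Its transcript has a GC content of 41.5%, lower than that of PSME1 (53.2%) and PSME2 (57.6%), and the libraries with the GC trend held the lowest value of PSME4 in their own group. Without them the log2 fold change was -0.26 (adjusted p = 0.0033), and after GC and length correction it was -0.26 (adjusted p = 0.00011).

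PSME3, the gamma form of the 11S activator, which acts in the nucleus, had 172.5 to 183.6 CPM in control and 168.7 to 178.2 CPM in HG, with an interval of the fold change from 0.921 to 1.03. PSMF1, an inhibitor of the core known as PI31, had 102.7 to 113.3 CPM in control and 103.2 to 124.9 CPM in HG, with an interval from 0.955 to 1.15. Both intervals exclude a fall of the size measured for PSME1.

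**Figure D5:**
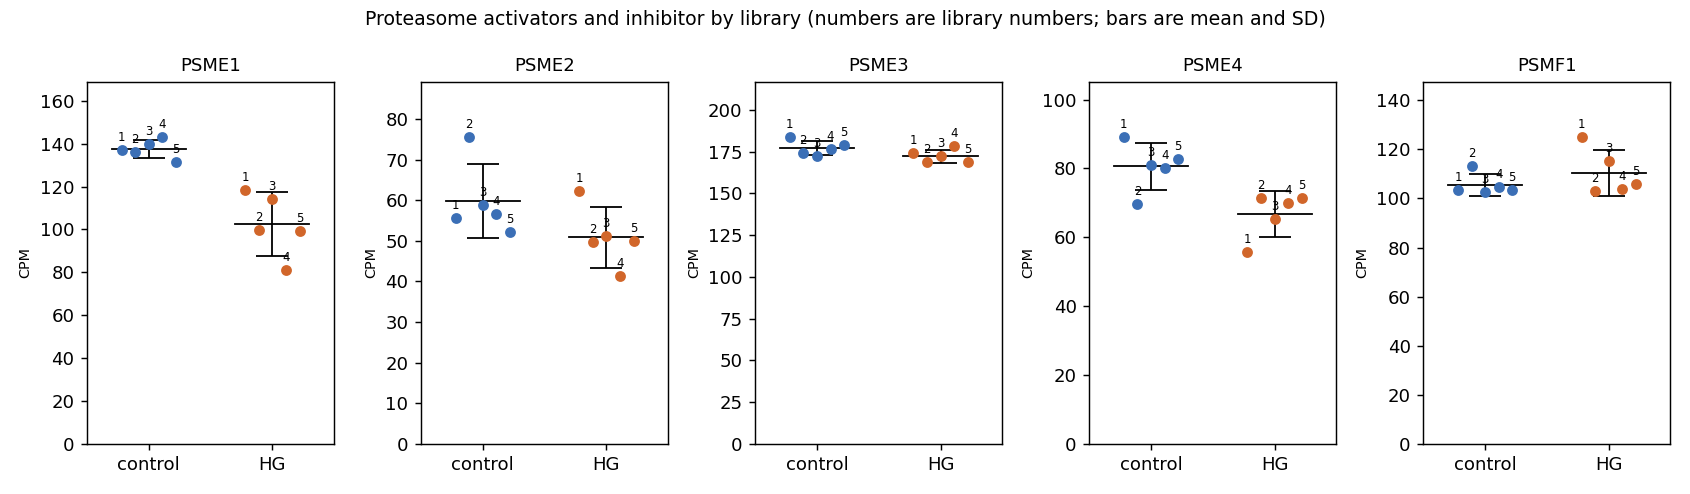
CPM in each library for the 4 activator genes and the inhibitor PSMF1; points carry the library number and black bars give the mean and SD of 5 libraries per group. All HG values of PSME1 lie below all control values, those of PSME4 do so except for control_2, and PSME3 and PSMF1 overlap.

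The stretch before the start of PSME1 is shown because this is the member with the clearest change, with parts of those of PSME2 and PSME4 beside it. Sequences are from RefSeq on GRCh38.p14, 5′ to 3′ along the strand of the gene, and capitals mark the core of the antioxidant response element, TGACNNNGC or its reverse complement, the letters that NFE2L1, a factor known to drive proteasome genes, and its relatives recognise. PSME1 is given from 250 to 37 bases before its start (chr14:24135944-24136157, plus strand), where the first annotated exon begins. For PSME2 (chr14:24146767-24146795, minus strand) and PSME4 (chr2:53971009-53971037, minus strand), whose upstream windows are covered by exons of PSME2 and RNF31 and of ACYP2, only the match and its flanks are given.
PSME1: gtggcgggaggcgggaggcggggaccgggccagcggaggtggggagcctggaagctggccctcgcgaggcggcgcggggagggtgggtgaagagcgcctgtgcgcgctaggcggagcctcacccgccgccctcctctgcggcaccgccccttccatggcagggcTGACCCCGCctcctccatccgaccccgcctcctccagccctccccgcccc
PSME2: ccctggactgTGACCCAGCcagcaccgcc
PSME4: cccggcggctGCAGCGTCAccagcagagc

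The match began 86 bases before the start in PSME1, 175 in PSME2 and, on the reverse strand, 34 in PSME4. RefSeq windows were found for 42 of the 48 members, as 51 sequences of 250 upstream bases. TGACNNNGC, searched on both strands, was present in 13 of the 51 (25.5%) and in 10.9% of all 35116 windows of the same length. CCAAT, on both strands, was present in 37.3% of the members' windows and in 32.0% of all. The interferon gamma-activated motif, TTCNNNGAA, which reads the same on both strands, was present in 13.7% and in 6.57%, with PSMB8 and PSMB5 among the genes and none of PSME1, PSME2 and PSME4. These matches describe letters in a window and not binding.

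Among the assembly factors, none of 7 passed, with log2 fold changes from -0.16 to 0.17 and a median of 0.06. PSMG1 to PSMG4 form the paired chaperones that build the alpha ring, and PSMD5, PSMD9 and PSMD10 help to assemble the base. PSMD9 had the largest value of the class and measured 46.0, 64.6, 46.5, 52.4 and 50.6 CPM in control and 70.1, 53.9, 57.8, 54.8 and 56.2 CPM in HG. All HG libraries lay above the controls other than control_2 (log2 fold change 0.17, SE 0.10, adjusted p = 0.330). For PSMD9 the value was 0.10 without HG_1 (adjusted p = 0.508), 0.26 without control_2 (adjusted p = 0.058) and 0.19 without both (adjusted p = 0.022). Its direction depended on the table, since in FPKM its log2 fold change was -0.03 (limma, adjusted p = 0.937). The ratio of count to FPKM differed 1.77-fold between libraries for this gene, the most of any member, and by less than 1.1-fold for 32 of the 46. Of the 100-base windows of PSMD9 transcripts, 27.5% also occur in AC069503.2 or WDR66, which overlap it on the same strand. With those rows added, the log2 fold change was 0.16 (SE 0.10, edgeR adjusted p = 0.356).

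Genes for proteins that work with the particle gave no call either, where 15.4% of all rows were called. At that share, lists this short can lack a call without differing from all rows. Of 16 genes for associated proteins (ubiquitin receptors, shuttle factors, deubiquitinating enzymes and the maturation factor POMP), none passed in edgeR, and the median log2 fold change was 0.06 with a range from -0.09 to 0.18. UBQLN2, a shuttle factor, passed as higher without control_2 and HG_1 together and after GC and length correction, and UBQLN4 after the correction. Of all rows, 27.1% and 29.3% passed under these settings. Of 5 genes for ubiquitin and its activating enzymes none passed, with a range from -0.17 to 0.03. UBA1, the main enzyme that activates ubiquitin, was the lowest of them at -0.17 (adjusted p = 0.064). It passed as lower without control_2 and HG_1 together (-0.19, adjusted p = 0.0020) and after GC and length correction (-0.13, adjusted p = 0.0054).

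The route that raises proteasome genes when the particle falls short contains 7 listed genes, of which 2 rose and 5 did not pass, where 7.62% of all rows were called higher. NFE2L1, the factor itself, measured 443.9, 438.5, 485.2, 462.5 and 463.8 CPM in control and 544.0, 564.7, 566.9, 508.1 and 525.1 CPM in HG. The groups did not overlap (log2 fold change 0.24, SE 0.05, adjusted p = 0.0051). MAFF, a small partner protein of such factors, measured 5.18 to 7.76 CPM in control and 8.88 to 11.5 CPM in HG, again without overlap (0.61, SE 0.12, adjusted p = 0.0069). DDI2 and NGLY1, which process the NFE2L1 protein, were at -0.02 and 0.08 and did not pass. MAFK, another small partner protein, was at -0.16 (adjusted p = 0.054) and passed as lower without control_2 and HG_1 together (-0.18, adjusted p = 0.0087), but not after GC and length correction (-0.10, adjusted p = 0.214). NFE2L1 is controlled largely through the stability of its protein, which RNA does not show.

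Of 7 genes of the interferon route and of antigen processing none passed in edgeR, where 15.4% of all rows did. Their median log2 fold change was -0.24, with a range from -0.52 to 0.13. TAP1, which pumps peptides into the endoplasmic reticulum and lies beside PSMB8 and PSMB9, had the lowest value at -0.52 (adjusted p = 0.282). It measured 3.00, 8.72, 3.82, 3.24 and 3.12 CPM in control and 3.53, 2.93, 3.41, 2.58 and 2.80 CPM in HG. The groups overlapped, and control_2 stood above every other library. Without control_2 and HG_1 together the log2 fold change of TAP1 was -0.17 (adjusted p = 0.440).

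Leaving out control_2 and HG_1 together left 45 members to test, of which 8 (17.8%) passed, where 27.1% of all rows did. PSMB7, PSMD8, PSMD9, PSMD12 and PSMD14 were higher in HG, and PSMB6, PSME1 and PSME4 were lower. After GC and length correction 8 of 46 (17.4%) passed, where 29.3% of all rows did: PSMB7 was higher, and PSMA3, PSMB4, PSMB5, PSMB6, PSME1, PSME2 and PSME4 were lower. PSMB6, PSMB7, PSME1 and PSME4 were called in the same direction by both. The share of members called was below the share of all rows in the main test and under both of these settings.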

How the data were processed

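The authors deposited a table of raw read counts per gene and a table of FPKM values for the same 10 libraries. Per the labels, libraries were made with the VAHTS Universal V6 kit from Trizol RNA, and the submitters' processing notes name fastp 0.20.1, HISAT2 2.2.1 and GRCh38, without their order. The counting program, its annotation and its use of strand are not given in the sources used here. The deposited FPKM are not a fixed multiple of the counts for every gene.

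Counts were tested in R 4.3.3 with edgeR 4.0.16 (default filter on low counts, TMM, quasi-likelihood test, Benjamini-Hochberg adjustment over all 14936 rows). CPM are on TMM-scaled library sizes. The standard error is the absolute log2 fold change over the root of F. Alternatives used DESeq2 1.42.0, limma 3.58.1 on log2(FPKM + 1), and a lowess correction for GC content and transcript length (GENCODE release 29). Fits were also run on simulated counts, whose changes were larger than the main-test changes of PSME1 and PSME4. The simulated GC trend was steeper than that of control_2 and HG_1. That run therefore does not cover effects as small as those of the called members. Ratios were tested by exact permutation over 252 arrangements (scipy 1.17.1). No pair of libraries within a group agreed within sampling noise (chi-square per row 13.2 to 78.7), so none was treated as a repeat deposit of another. This does not show that they came from separate cultures. HG libraries are named by their column, since the labels give them letters.

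Genes named are those past the threshold, the 3 largest and 3 lowest log2 fold changes, PSMB5 to PSMB10 and PSME1 and PSME2, and in the other lists up to 4 genes past the threshold by adjusted p. Further genes are marked as chosen after their values were seen, or are given as context. The members and lists were chosen with earlier results of these data known. Intervals and floors cover counting error only where they rest on counts of a single library. In the lists outside the members, 4 genes are not reported here and are left out of the counts and medians.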

Additional observations from a re-analysis of the deposited data

Results flagged for a closer look

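Among the 38 groups of 5 values of the members described one by one, 8 held a library that lay far from the other 4, by Dixon's criterion for 5 values, where chance gives about 1.9. PSMB6, PSMB7 and PSMF1 had their highest control value in control_2, at 109.4 CPM (others 81.6 to 88.2), 148.6 CPM (others 120.8 to 127.7) and 113.3 CPM (others 102.7 to 104.8). PSMB5, PSMB10, PSMD4 and PSMD9 had their highest HG value in HG_1, at 150.5 CPM (others 109.5 to 118.1), 26.2 CPM (others 15.9 to 17.9), 163.4 CPM (others 116.3 to 124.2) and 70.1 CPM (others 53.9 to 57.8). These are the libraries with the rising GC trend. PSMD2 had its lowest control value in control_3, at 676 CPM (others 738.9 to 751.6). Among all 92 groups of 5 values examined over the 46 tested members, 23 held such a library, where chance gives about 4.6. It was HG_1 as the highest in 11 and control_2 as the highest in 9. The part of the GC trend in the values of control_2 and HG_1 was not tested.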

How the results depend on the processing

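No paired analysis was possible because the labels number the control samples and letter the HG samples, and no label ties the column numbers of the HG libraries to those letters. PSME1 kept its call under every setting tried. The 2 calls became 1 with no filter on low counts and 8 both without control_2 and HG_1 together and after GC and length correction. Leaving out 1 library gave 1 to 3 calls, of which 0 to 1 were higher and 1 to 2 lower. Higher in HG were 1 with library size alone, 1 with DESeq2, 1 with limma on log2(FPKM + 1) or log2(FPKM + 0.1), 2 with limma at a mean FPKM of at least 1, 5 without control_2 and HG_1, and 1 after GC and length correction. Lower in HG were 1 with library size alone, 1 with no filter, 1 with each limma fit and 7 after GC and length correction. PSME4 was the call lost with library size alone (adjusted p = 0.095), with no filter (0.067) and in the limma fits (0.1004 to 0.116). Over all rows, 2303 calls became 4035 without the 2 libraries, 3965 after the correction and 1648 to 2993 without 1 library.

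The median log2 fold change of the base ran from -0.041 to 0.057 without 1 library, negative without control_1, control_5 or HG_3, and was -0.030 after the correction. That of the lid was -0.042 after the correction. That of the activators ran from -0.26 to -0.13 without 1 library and was -0.19 in the limma fits and -0.26 after the correction. Among named genes, the direction turned for PSMB8 (-0.015 to 0.17 without 1 library), PSMB9 (-0.0595 to 0.19 without 1 library, and -0.019 after the correction), PSMD9 (-0.027 in each limma fit), PSMC4 (-0.086 to 0.37 without 1 library, negative without control_1, control_5, HG_3 or HG_5) and PSMB4 (-0.11 to 0.018 without 1 library, positive without control_2), none of them past the threshold under those settings. Adding same-strand overlapping rows to the member, an alternative chosen after seeing the data, left 2 calls, PSME1 and PSME4. The causes were not tested. At 5 to 14 counts per library, depth limits PSMB9.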
